A study of Rattus norvegicus with 24 samples.

Results

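The urethra of rats that received allogeneic mesoangioblasts (MABs-allo) was compared between 3d and 7d after the injury. Of the 24 libraries of the series, 8 belong to this comparison, 4 at 3d and 4 at 7d, and they were chosen by their labels alone. Of 32883 genes in the expression table, the 16411 with a mean of at least 2 normalized counts over these 8 libraries were tested.

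All animals were female virgin Sprague-Dawley rats, 12 weeks old and labelled WT. Every rat underwent simulated vaginal delivery (SVD), a crush of the pudendal nerve combined with distension of the vagina, so that there is no uninjured group here. About an hour later the rats were injected into the aorta with saline (control), with MABs-allo or with MABs that also express VEGF (MABs-allo-VEGF), and the urethra was taken at 3d or 7d, which gives 6 groups of 4 libraries. The MABs-allo came from hind-limb muscle of a donor rat, were sorted for alkaline phosphatase and carried a lentiviral eGFP and luciferase reporter. Transcripts of injected cells cannot be told apart from those of the host in these files. The labels number 4 replicates a group without saying that each is a separate rat, so p-values measure the spread between these libraries. The titles of the 4 MABs-allo libraries labelled 3d open with 0.5, whereas every other title opens with its day (3 or 7). What this prefix marks is not given in the sources used here, and the libraries are called 3d as both the end of the title and the treatment field do.

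Mesoangioblasts are progenitors associated with small vessels that can enter the smooth and skeletal muscle lineages. The urethra holds an epithelium, a smooth muscle layer and a striated sphincter supplied by the pudendal nerve, and after a crush the fibres of that sphincter lose and regain their innervation. Regenerating muscle passes from activated satellite cells (Pax7) through myoblasts (Myod1) and differentiating cells (Myog) to new fibres that transiently use developmental myosins (Myh3, Myh8). Mast cells are tissue-resident cells that store histamine, made by Hdc, and proteases such as Cpa3 and the tryptases.

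The libraries of the 2 days differed in depth and in the origin of their reads. The 3d libraries held 2170695 to 4491900 reads and the 7d libraries 5478333 to 10166052, so that 1 read was worth 5.42 to 9.23 normalized counts at 3d and 1.67 to 4.15 at 7d. AY172581.24 and AY172581.9, rows whose symbols carry the name of the rat mitochondrial genome sequence, together took 14.6% to 25.6% of all reads in the 3d libraries and 0.43% to 1.42% in the 7d libraries. The share was 0.66% to 8.29% in saline 3d libraries and 4.06% to 24.5% in MABs-allo-VEGF 3d libraries. On the first principal component of the 8 libraries, which held 79.9% of the variance of the 500 most variable genes, 3d replicates 1, 2 and 3 lay between -74.1 and -64.0, 3d replicate 4 at -26.8 and the 7d libraries between 49.99 and 66.5. Depth, this share and the day change together between the groups, and their part in the results below was not tested, except that thinning all libraries to 2170695 reads gave 773 rises and 2594 falls, against 993 and 2797 below. Defining genes of the labelled tissue were present: smooth muscle (Acta2, Myh11), striated muscle (Acta1, Ckm) and epithelial (Krt7) genes had reads in all 8 libraries.

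**Figure D1:**
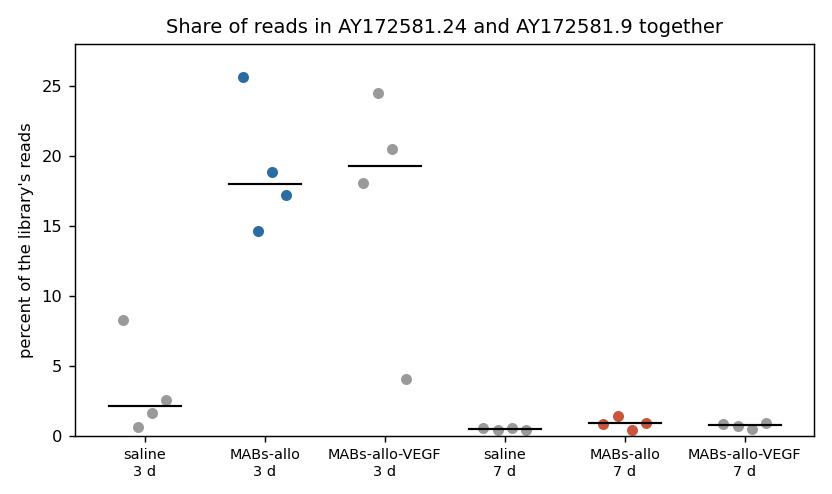
Percent of each library's reads in AY172581.24 and AY172581.9 together, for the 6 groups (points, 4 libraries each; lines, medians). The MABs-allo 3d libraries lie between 14.6% and 25.6% and the MABs-allo 7d libraries between 0.43% and 1.42%.

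More genes fell than rose from 3d to 7d. With limma on log2(normalized count + 1) and a call at a Benjamini-Hochberg adjusted p under 0.05 with a log2 fold change beyond 1, 993 genes (6.05% of those tested) were higher and 2797 (17.0%) lower at 7d, together 23.1%. The median log2 fold change over all tested genes was -0.09, and 6785 genes had an unadjusted p under 0.05. Falls were also larger, with a median size of 2.94 on the log2 scale against 1.52 for rises. In 287 of the genes that fell (10.3%) no read was found in any 7d library, and in 77 of those that rose (7.75%) none at 3d. Among all 16411 tested genes, 654 had no read in any 7d library and 237 had none at 3d. For 4399 genes (26.8%) the 4 values of one day did not overlap with those of the other day. The split between rises and falls depended on scaling, with 1889 higher and 2189 lower after quantile normalization and 1635 higher and 2410 lower with all libraries scaled to the same total. These scalings moved the median of all genes up by 0.30 and 0.20 on the log2 scale, and TMM scaling moved it by 0.12.

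**Figure D2:**
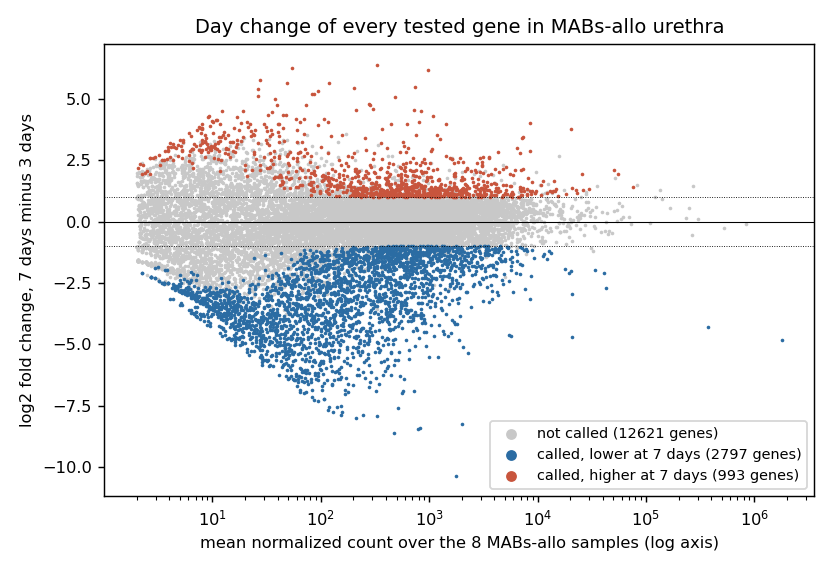
Log2 fold change (7d minus 3d) of each tested gene against its mean normalized count over the 8 MABs-allo libraries (log axis). Called genes are blue when lower (2797) and red when higher (993) at 7d, and the falls reach further from 0 than the rises.

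The largest falls and rises were sought among called genes with a mean of at least 50 normalized counts and groups without overlap. Separation of the 2 days was thus a condition of the choice and not a result. The 10 largest falls were those of Gm26083, Arhgap23, Gpatch2, Dlg5, Gab1, Prkacb, Tmprss11b, Arhgef17, Barx2 and Llgl1. Prkacb, a catalytic subunit of protein kinase A, had 170.4, 372, 415 and 81.4 normalized counts in 3d replicates 1 to 4 and no read in 7d replicates 7.2, 9, 11 and 13 (the order used throughout), at least 20.9-fold lower (adjusted p = 6.44e-05). Gab1, an adaptor of growth factor receptors, had 639, 252, 258 and 70.5 at 3d and again no read at 7d, at least 24.5-fold lower (adjusted p = 8.1e-05). Both genes had reads in every 3d library, with replicate 4 the lowest. Llgl1 and Dlg5, which help to set the polarity of epithelial cells, fell likewise. Llgl1 was at least 19.2-fold lower, and Dlg5 had 278 reads at 3d against 1 at 7d, a ratio of 661 with a 95% counting interval of 118 to 26199. The bounds use a floor of 3 reads per library, and intervals and bounds cover counting error only.

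The 10 largest rises, chosen by the same rule, were those of Mrpl43, Aqp7, Adipoq, Tpsb2, Cpa3, Ciart, Csf3, Ramp3, Steap1 and Pck1. They include 3 adipocyte genes and 2 mast cell genes. Mrpl43, a protein of the mitochondrial ribosome, stood at 7.1, 16.4, 0 and 21.7 normalized counts at 3d and at 681, 851, 602 and 461 at 7d (log2 fold change 6.4, SE 1.85, adjusted p = 0.0112). Its groups were far apart, yet the call was lost without 3d replicate 3 (5.43, adjusted p = 0.0554). Ramp3, which modifies the receptor for adrenomedullin, had 28.4, 65.6, 129 and 0 at 3d and 1434, 490.1, 354 and 1353 at 7d (5.08, SE 1.03, adjusted p = 0.000862). Adrenomedullin itself, Adm, rose from 149, 279, 73.9 and 559 to 997, 1252, 1023 and 3947 (2.87, SE 0.60, adjusted p = 0.00118), without overlap.

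Genes of mast cell granules had few or no reads in the MABs-allo urethra at 3d and were present at 7d. Of 17 tested genes of the list 10 rose (58.8%, against 6.05% of all genes), the median log2 fold change was 2.96, or 2.0 with undetected genes at their bound, and the other 7 did not pass the test. Hdc, which makes histamine, had no read in any 3d library and 49.6, 36.4, 51.7 and 83.0 normalized counts at 7d, at least 1.99-fold higher (adjusted p = 0.000132). The tryptase Tpsb2 stood at 0, 16.4, 0 and 21.7 at 3d and at 297, 175, 158 and 282 at 7d (log2 fold change 5.63, SE 0.92, adjusted p = 0.000185). Cpa3, the mast cell carboxypeptidase, stood at 0, 21.9, 9.23 and 0 at 3d and at 164, 62.9, 178 and 319.6 at 7d (5.33, SE 0.99, adjusted p = 0.000482). For each of these genes every 7d library was above every 3d library, which for Tpsb2 and Cpa3 was a condition of their choice as largest rises. The proteases Mcpt1 (no read at 3d, at least 3.55-fold higher, adjusted p = 0.000552), Mcpt1l1 (4.18, SE 1.01) and Tpsab1 (4.36, SE 1.18) rose too, and so did Fcer1a, the alpha chain of the IgE receptor, which had no read at 3d and 3.31 to 34.1 normalized counts at 7d (adjusted p = 0.00607). The rise of Fcer1a has no bound, because its 7d mean lay under the 3d floor of 27.7 and 1 read at 3d was worth 5.42 to 9.23. The mast cell proteases are close relatives, and reads could have been split among them in counting. Kit, the receptor of stem cell factor, which other cells also carry, stood at 191 to 369 at 3d and 110.1 to 265 at 7d (-0.74, adjusted p = 0.229). The summed level of the whole list overlapped between days (3020 to 6979 at 3d, 2338 to 5492 at 7d). In a bulk sample fewer cells of a type and less RNA per cell cannot be told apart.

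In saline rats the 17 genes did not pass the limma test between the days, for example Cpa3 (adjusted p = 1.0) and Hdc (adjusted p = 0.93). Cpa3 averaged 329 ± 363 normalized counts at 3d and 218 ± 65.9 at 7d (SD, n = 4), and Hdc 62.1 ± 46.1 and 45.9 ± 23.9. The difference between the day changes, MABs-allo minus saline, was 5.33 (SE 1.40) for Cpa3, 5.99 (SE 1.26) for Hdc and 5.14 (SE 1.30) for Tpsb2, none past the threshold over all genes (each adjusted p = 0.182, limma). Without the 2 libraries that stood apart from their own groups (MABs-allo-VEGF 3d replicate 4 and saline 3d replicate 6), adjusted p was 0.0271 for Cpa3, 0.00972 for Hdc, 0.0216 for Tpsb2 and 0.0375 for Mcpt1. Only these 4 of the 17 genes passed in that setting, in which 3.59% of all tested genes passed. In the share of reads in AY172581.24 and AY172581.9, saline 3d replicate 6 (8.29%, against 0.66% to 2.59% in replicates 8 to 10) lay nearer to MABs-allo 3d. Leaving it out can therefore widen the difference from saline. MABs-allo-VEGF 3d replicate 4 held 4.06%, against 18.1% to 24.5% in replicates 1 to 3. Saline 3d replicate 8 was kept, although its summed epithelial list was 7577 against 92040 to 102617 in replicates 6, 9 and 10.

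**Figure D3:**
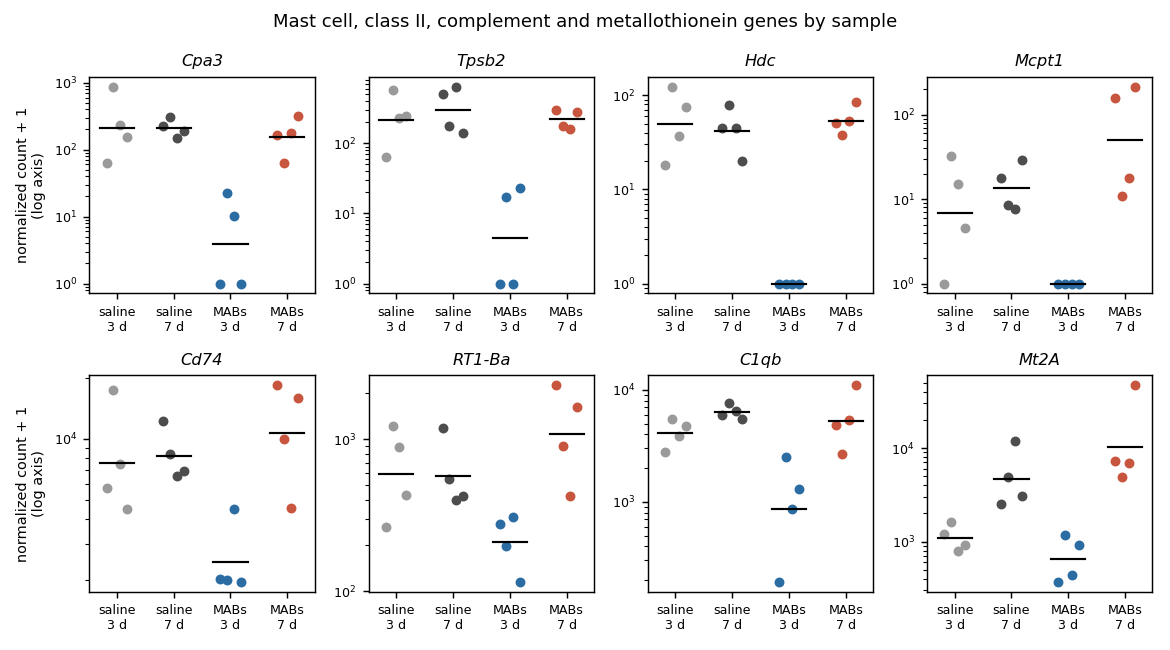
Normalized count + 1 (log axis) of 8 genes in each saline and MABs-allo library at 3d and 7d (points, 4 libraries a group; lines, means on the log scale). Hdc and Mcpt1 have no read in the 4 MABs-allo 3d libraries, while 4 and 3 of the 4 saline 3d libraries hold reads of them.

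The start regions of a pair of the mast cell genes are shown because GATA factors, known regulators of mast cells, bind the letters AGATAA and TGATAA. The windows run from 250 bases before to 50 bases after the annotated start (RefSeq, GRCr8, matched by symbol, 5′ to 3′ along the gene), and capitals mark matches to these letters on either strand.
Cpa3, chr2:104673188-104673487, minus strand: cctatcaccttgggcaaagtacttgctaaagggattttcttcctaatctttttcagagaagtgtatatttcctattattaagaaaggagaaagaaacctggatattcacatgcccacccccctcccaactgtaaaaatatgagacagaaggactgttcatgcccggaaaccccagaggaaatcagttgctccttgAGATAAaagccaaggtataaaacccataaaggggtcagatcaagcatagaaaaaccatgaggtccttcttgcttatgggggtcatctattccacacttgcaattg
Mcpt1, chr15:33841356-33841655, plus strand: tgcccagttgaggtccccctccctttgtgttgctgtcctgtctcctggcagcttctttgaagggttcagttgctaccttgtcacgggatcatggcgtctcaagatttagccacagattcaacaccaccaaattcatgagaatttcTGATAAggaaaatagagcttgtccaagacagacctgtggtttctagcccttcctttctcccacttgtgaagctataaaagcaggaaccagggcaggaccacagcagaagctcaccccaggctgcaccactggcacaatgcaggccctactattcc
Each held 1 match, whereas the windows of Hdc and Tpsb2 held none. Of 33469 windows of this length in the annotation 18.9% held at least 1 match. A match is a description of the letters and shows neither binding nor regulation.

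Genes of antigen presentation by MHC class II rose, and none of the rises in the list was a class I gene. Of 10 measured class II rows 6 rose, namely Cd74, RT1-Ba, RT1-Da, RT1-Db1, RT1-DMa and RT1-DMb. They make up all 6 rises among the 35 tested genes of the wider list of MHC and interferon genes, whose median was 0.10 and in which 2 genes fell. Over that list 17.1% rose and 5.71% fell, against 6.05% and 17.0% of all genes. Cd74, the invariant chain that escorts class II molecules, stood at 2024, 1997, 4514 and 1953 normalized counts at 3d and at 18430.1, 9930.4, 4526 and 15994 at 7d (log2 fold change 2.13, SE 0.42, adjusted p = 0.000698). Its lowest 7d value, in replicate 11, was barely above the highest 3d value, in replicate 3. RT1-Ba showed 277, 197, 305 and 114 against 2255, 894, 424 and 1619 (2.37, SE 0.50, adjusted p = 0.00124). RT1-Db1 showed 554, 722, 1154 and 987 against 9525, 4029.8, 1757 and 9703 (2.62, SE 0.52, adjusted p = 0.000705). In all 3 genes the groups did not overlap and 7d replicate 11 was the lowest of its day. B2m, the light chain of class I, stood at 27584 to 46278 at 3d and 37223 to 59617 at 7d (0.35, adjusted p = 0.32). RT1 genes are near-identical in part, so that reads may have been shared among them.

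Macrophage and complement genes rose in part. Of 24 tested genes 5 rose (20.8%, against 6.05% of all genes), with a median of 1.06. The count was 3 without 3d replicate 1 or 7d replicate 13 and 8 without 3d replicate 2. C1qb, a chain of the first complement component made mainly by macrophages, stood at 192, 2533, 859 and 1297 at 3d and at 4807, 2652, 5361 and 10973 at 7d (log2 fold change 2.61, SE 0.53, adjusted p = 0.000863). C1qc rose by 2.38 (SE 0.52, adjusted p = 0.00151) and Lyve1, found on lymphatic endothelium and on some macrophages, by 2.10 (SE 0.48, adjusted p = 0.00221). C1qa rose by 1.41 (SE 0.45, adjusted p = 0.0194), a call lost without 3d replicate 1 (1.03, adjusted p = 0.0963) or 7d replicate 13 (1.21, adjusted p = 0.0688). In each of these genes 3d replicate 1 was the lowest library. The lysosomal macrophage marker Cd68 did not pass the test (56.8 to 443 at 3d, 248 to 909 at 7d).

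Of 26 inflammatory cytokine genes 6 rose (23.1%, against 6.05% of all genes, median 1.31), and 3 without 3d replicate 2, 3d replicate 4 or 7d replicate 9. Cxcl1, a chemokine that draws neutrophils, stood at 99.4, 32.8, 185 and 21.7 at 3d and at 774, 5358, 1890.0 and 274 at 7d (log2 fold change 4.30, SE 0.95, adjusted p = 0.00169), and 7d replicate 9 was the highest. Il1rn, the natural antagonist of interleukin 1, rose by 1.58 (SE 0.51, adjusted p = 0.0225), a call lost without 3d replicate 2 (1.13, adjusted p = 0.105), 7d replicate 9 or 7d replicate 11. Without 3d replicate 2, 3d replicate 4 or 7d replicate 9 the list held 3 rises. Among 16 neutrophil genes 2 rose (12.5%), S100a9 (291, 213, 868 and 618 at 3d, 2580.2, 1619, 2884 and 3474 at 7d, log2 fold change 2.57, SE 0.70, adjusted p = 0.00777) and Mpo, which had no read at 3d (at least 1.88-fold higher, adjusted p = 0.00316). The list's median was 1.82, or 1.21 with undetected genes at their bound. Of 21 lymphocyte genes 2 fell (9.52%, below the 17.0% of all genes), with a median of 0.26. Ccl2, which draws monocytes, stood at 55.4 to 394 at 3d and 146 to 472 at 7d (0.68, adjusted p = 0.519).

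Some genes of muscle regeneration were lower at 7d than at 3d. Of 24 tested genes of the myogenic list 10 fell (41.7%, against 17.0% of all genes), 1 rose and 13 did not pass the test, with a median of -0.95. The summed level of the list overlapped between the days (37254 to 91624 at 3d, 39701 to 61246 at 7d). Pax7, the satellite cell factor, stood at 49.7, 104, 18.5 and 27.1 normalized counts at 3d and at 0, 3.31, 0 and 0 at 7d, that is 33 reads against 1, a ratio of 78.5 (95% counting interval 13.1 to 3192, adjusted p = 0.00089). Its partner Pax3 had 22 reads at 3d and 2 at 7d, a ratio of 26.2 (6.43 to 229). Myog stood at 1605, 2484, 2668 and 2881 at 3d and at 418, 669, 1239 and 245 at 7d (log2 fold change -2.12, SE 0.48, adjusted p = 0.00212), without overlap. Myod1 changed from 269.8, 569, 831 and 1188 to 74.3, 288, 212 and 58.1 (-2.28, SE 0.60, adjusted p = 0.00603), with the highest 7d library above the lowest 3d library. The perinatal myosin Myh8 fell from 7015, 5859, 21039 and 7789.9 to 219.9, 1013, 212 and 361 (-4.64, SE 0.76, adjusted p = 0.000185). The embryonic myosin Myh3 stood at 3458 to 8852 at 3d and 431 to 3046 at 7d (-1.76, SE 0.72), which missed the threshold (adjusted p = 0.0679) although the groups did not overlap, and it passed with the 8 MABs-allo libraries alone (adjusted p = 0.0275). Des, the intermediate filament of muscle, was the 1 rise (1.30, SE 0.45, adjusted p = 0.0311), lost without 3d replicate 1 (0.86, adjusted p = 0.151), 3d replicate 3, 7d replicate 11 or 7d replicate 13.

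Most genes of mature fibres did not pass the test. Of 34 tested fibre genes 6 fell (17.6%, close to the 17.0% of all genes), with a median of -0.42. The median was -0.75 without 3d replicate 1, with 9 falls, and -0.15 without 7d replicate 7.2. Acta1, the actin of skeletal muscle, stood at 25709.5, 64041, 94643 and 129158 at 3d and at 32691, 81913, 51486 and 106312 at 7d (log2 fold change -0.11, SE 0.53, adjusted p = 0.891), Ckm at 3302 to 19636 and 4476 to 15182, and Myh4 at 16820.2 to 72811 and 14205 to 45456, with adjusted p = 0.806 and 0.764. Their sign changed with scaling or with the libraries left out. Among the genes that fell were Neb, a giant protein of the thin filament (-2.09, SE 0.50), Ryr1, the calcium release channel (-1.60, SE 0.40), and Xirp2, an actin-binding protein (-2.21, SE 0.55), with adjusted p of 0.00328, 0.00395 and 0.00416. The summed level of the list was 221233 to 770873 at 3d and 167525 to 449326 at 7d.

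**Figure D4:**
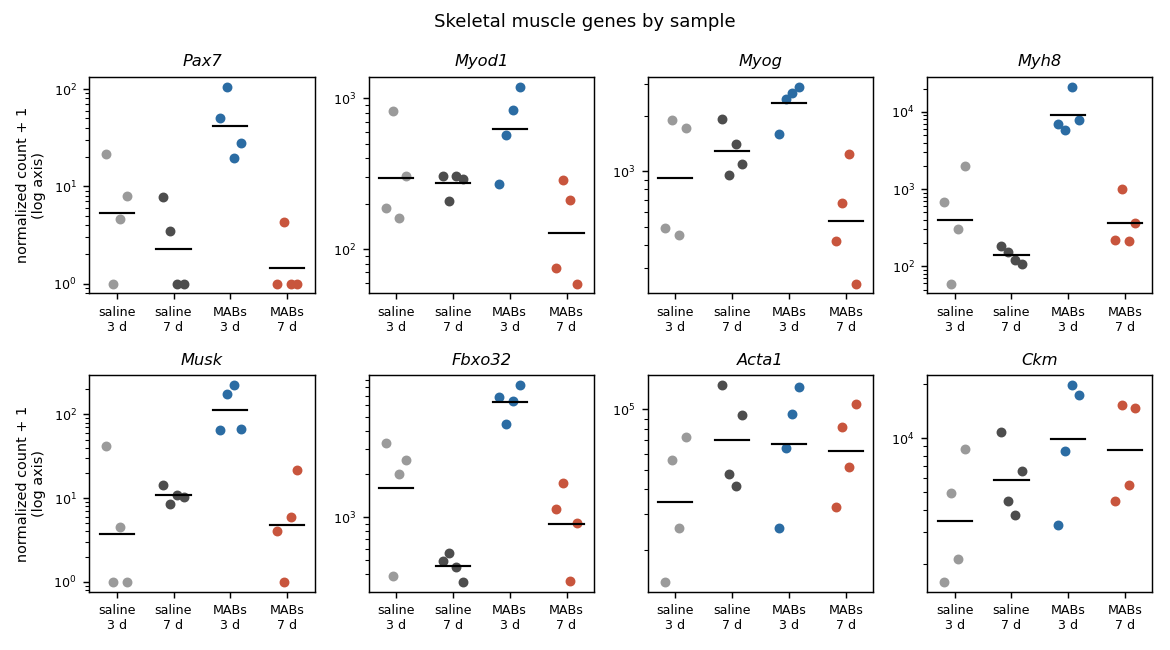
Normalized count + 1 (log axis) of 8 skeletal muscle genes in each saline and MABs-allo library at 3d and 7d (points, 4 libraries a group; lines, means on the log scale). Pax7, Myog, Myh8, Musk and Fbxo32 lie lower in all 4 MABs-allo libraries at 7d than at 3d, while Acta1 and Ckm overlap.

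Of 18 tested genes of the neuromuscular junction 4 fell (22.2%, against 17.0% of all genes). Their median was -0.32, and it ranged from -0.67 without 3d replicate 1 to -0.16 without 7d replicate 7.2. Musk, the kinase that organises acetylcholine receptors under the nerve ending, stood at 63.9, 175, 222 and 65.1 at 3d and at 3.1, 0, 5.0 and 20.8 at 7d (log2 fold change -4.57, SE 1.08, adjusted p = 0.00278). Hdac4, which carries the signal of lost innervation to muscle genes, fell by 2.90 on the log2 scale (SE 0.75, adjusted p = 0.00547) and the muscle sodium channel Scn4a by 3.42 (SE 0.92, adjusted p = 0.00701). Chrne, the adult subunit of the acetylcholine receptor, did not pass the test (178 to 450.3 at 3d, 108 to 305 at 7d). Of 21 atrophy genes 3 fell (14.3%, below the 17.0% of all genes) and 2 rose, the latter being the metallothioneins Mt1 and Mt2A. The number of rises was 4 without 3d replicate 2 or 7d replicate 7.2, 9 or 11, and 6 with libraries scaled to the same total or in edgeR. Fbxo32 (atrogin-1), a ubiquitin ligase that marks muscle loss, stood at 6866, 4459, 6471 and 8273 at 3d and at 1137, 1722, 357 and 913 at 7d (-2.83, SE 0.56, adjusted p = 0.00077). Its activator Foxo1 fell as well, from 407 to 711 down to 16.7 to 178 (-2.96, SE 0.56, adjusted p = 0.000544). Fbxo40, a muscle ligase, had 5.42 to 46.2 at 3d and no read at 7d, at least 2.01-fold lower (adjusted p = 0.000655).

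For Musk the saline libraries averaged 11.2 ± 20.1 normalized counts at 3d and 10.1 ± 2.53 at 7d (SD, n = 4). The difference between the day changes was -6.11 (SE 1.52, adjusted p = 0.182) with all libraries and -7.28 (SE 1.29, adjusted p = 0.00474) without the 2 libraries that stood apart. For Fbxo40, at 0 in all 8 saline libraries, the adjusted p of that difference was 0.182 and 0.0439, and for Myog 0.182 and 0.0676. Without the 2 libraries 1 of the 18 junction genes, 1 of the 21 atrophy genes and 0 of the 24 myogenic genes passed, against 3.59% of all genes. Fbxo32 was also lower at 7d in most saline libraries. It stood at 3285, 388, 1980 and 2502 in saline 3d replicates 6, 8, 9 and 10. In saline 7d replicates 1, 2, 3 and 5 it stood at 490, 558, 445 and 352. None of the 21 atrophy genes was called between the days in saline rats.

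Smooth muscle genes moved both ways, 5 higher and 5 lower of 26, with a median of -0.04 and 3 rises without 3d replicate 1 or 7d replicate 13. That is 19.2% each way, against 6.05% higher and 17.0% lower of all genes, so the share of falls was near that of all genes. Acta2, the smooth muscle actin, stood at 12368, 25406, 19728 and 38103 at 3d and at 75988, 69191, 91189 and 107980.2 at 7d (log2 fold change 1.94, SE 0.43, adjusted p = 0.00179), without overlap. Chrm3, the muscarinic receptor through which acetylcholine contracts smooth muscle, rose from 9.23 to 21.3 up to 33.2 to 185 (2.60, SE 0.61, adjusted p = 0.00264). Myh11, the smooth muscle myosin, did not pass the test (48193 to 54772 at 3d, 25938 to 51225 at 7d, adjusted p = 0.525). Synpo2, an actin-binding protein (-4.03, SE 0.84, adjusted p = 0.00111), fell. Jph2, which ties the cell membrane to calcium stores, fell from 194 reads to 3, a ratio of 154 (95% counting interval 51.8 to 752). Without 3d replicate 1 or 7d replicate 13 the list held 3 rises. The summed level of the list, which weighs genes by their abundance, did not overlap between the days. It was 152063 to 272171 at 3d and 315801 to 365501 at 7d. In saline rats the sums overlapped (65936 to 319682 at 3d, 284095 to 489992 at 7d).

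Of 24 tested endothelial genes 5 rose (20.8%) and 2 fell (8.33%), against 6.05% and 17.0% of all genes. Their median was 0.42, with 3 rises without 3d replicate 1 or 7d replicate 9. Cd34, a surface protein of endothelium and of progenitor cells, stood at 469, 1373, 803 and 174 at 3d and at 12.4, 9.93, 3.34 and 16.6 at 7d (log2 fold change -5.74, SE 0.98, adjusted p = 0.000251), the widest change of the list. Prox1, which specifies lymphatic vessels, fell by 4.44 on the log2 scale (SE 0.87, adjusted p = 0.000656). Esam, an adhesion molecule of vessels, rose from 504, 1149, 803 and 1492 to 1955, 2904, 1965 and 2922 (1.39, SE 0.33, adjusted p = 0.00326). Vegfa, the main angiogenic ligand, fell from 2002, 1565, 2262 and 1334 to 638, 1146, 555 and 623 (-1.31, SE 0.26, adjusted p = 0.000753) without overlap, 1 of 2 changes among 15 genes of the VEGF and angiopoietin list. Among 16 pericyte and mesoangioblast genes 1 rose and 1 fell (6.25% each). Alpl, the alkaline phosphatase by which MABs were sorted, stood at 476, 317, 582 and 174 at 3d and at 607, 159, 666 and 535 at 7d (0.29, adjusted p = 0.724), and Notch3, a receptor of mural cells, fell by 5.03 (SE 1.14, adjusted p = 0.00204).

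Of 27 genes of neurons and axon growth 4 fell (14.8%, below the 17.0% of all genes), with a median of -0.59. Summed over the list, however, levels were 12075 to 23537 at 3d and 20161 to 41477 at 7d, higher at 7d with some overlap. In saline rats these sums were 13154 to 20206 at 3d and 21231 to 44507 at 7d. Gap43, a protein of growing axons, stood at 994, 2079, 812 and 1573 at 3d and at 251, 321, 309 and 344 at 7d (log2 fold change -2.06, SE 0.43, adjusted p = 0.00119). Dpysl3, which shapes growth cones, fell from 611, 1089, 1135 and 260.4 to 3.1, 16.6, 8.34 and 12.5 (-6.10, SE 1.19, adjusted p = 0.000669), and the developmental factor Sox11 by 4.31 (SE 0.90, adjusted p = 0.0011). Each of these genes was lower in every 7d library. Myelin and Schwann cell genes were mixed, with 2 rises and 2 falls among 21 and a median of 0.36 (0.07 without 3d replicate 3). That is 9.52% each way, against 6.05% higher and 17.0% lower of all genes. Without 3d replicate 1 the list held 1 rise and no fall, and without 7d replicate 11 it held 1 of each. Mbp, a protein of the myelin sheath, did not pass the test (log2 fold change 1.69, adjusted p = 0.155).

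Adipocyte genes rose. Of 25 tested genes 14 rose (56.0%, against 6.05%) and 1 fell, with a median of 2.78, or 2.13 with undetected genes at their bound. Adipoq, the adipocyte hormone adiponectin, stood at 0, 32.8, 73.9 and 5.42 at 3d and at 697, 86.1, 1383 and 5569 at 7d (log2 fold change 6.19, SE 1.64, adjusted p = 0.00641). Aqp7, the glycerol channel of fat cells, had no read at 3d and 19.9 normalized counts or more in each 7d library, at least 3.91-fold higher (adjusted p = 0.000158). Lipe, the hormone-sensitive lipase, rose from 1959.6, 1964, 914 and 1514 to 7484, 8841, 6788 and 26212 (2.78, SE 0.47, adjusted p = 0.000227). Replicate 13 was the highest 7d library for all 3 genes, and replicate 9 the lowest for Adipoq and Aqp7. Scd, which desaturates fatty acids, was the 1 fall (-2.31, SE 0.60, adjusted p = 0.0055). The summed level of the list was 7533 to 12779.8 at 3d and 20109 to 128950.5 at 7d, and in saline rats 7097 to 42936 and 27770 to 90080.1. In saline rats 8 of the 25 genes rose, against 0.579% of all genes there, with a median of 2.0. The median difference between the day changes, MABs-allo minus saline, was 0.03 for this list. Haemoglobin, as a sign of blood, was also highest in 7d replicate 13, where Hba-a2 stood at 529783 against 54589 to 68154 in the other 7d libraries and 21712 to 107826 at 3d (0.98, adjusted p = 0.465). How much fat or blood each piece held was not tested.

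Of 33 antioxidant genes 11 rose (33.3%, against 6.05% of all genes) and 1 fell, with a median of 0.60. Without 7d replicate 13 the list held 7 rises. Of the 5 metallothionein genes tested, Mt1, Mt1m and Mt2A rose, while Mt3 (0.55, adjusted p = 0.672) and Mt4 (2.29, adjusted p = 0.127) did not pass the test. Mt2A, which binds zinc and copper, stood at 369, 1159.8, 434 and 928 at 3d and at 7183, 4930.4, 6854 and 46796 at 7d (log2 fold change 4.0, SE 0.65, adjusted p = 0.000166). Mt1 rose by 3.44 (SE 0.60, adjusted p = 0.000302). All 7d libraries were above all 3d libraries for both, and replicate 13 was far above the other 7d libraries. Sod3, the superoxide dismutase outside the cell, rose from 930.1, 2172, 1717 and 2359.8 to 7096, 8499.9, 5115 and 10495 (2.16, SE 0.37, adjusted p = 0.000287), while Gsr, which regenerates glutathione, fell by 2.35 (SE 0.56, adjusted p = 0.00298). The start regions of the 2 metallothioneins, which lie next to each other, are shown because these genes are the textbook targets of a zinc-sensing factor that binds the metal response element. Windows are as above, and capitals mark TGCACNC or TGCGCNC on either strand.
Mt1, chr19:10832926-10833225, minus strand: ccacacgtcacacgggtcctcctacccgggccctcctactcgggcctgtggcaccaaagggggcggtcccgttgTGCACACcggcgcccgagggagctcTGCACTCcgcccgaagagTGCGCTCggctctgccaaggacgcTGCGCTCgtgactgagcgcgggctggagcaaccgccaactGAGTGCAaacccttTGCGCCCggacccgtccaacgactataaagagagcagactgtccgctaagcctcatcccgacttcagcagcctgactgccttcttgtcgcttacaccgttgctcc
Mt2A, chr19:10838659-10838958, minus strand: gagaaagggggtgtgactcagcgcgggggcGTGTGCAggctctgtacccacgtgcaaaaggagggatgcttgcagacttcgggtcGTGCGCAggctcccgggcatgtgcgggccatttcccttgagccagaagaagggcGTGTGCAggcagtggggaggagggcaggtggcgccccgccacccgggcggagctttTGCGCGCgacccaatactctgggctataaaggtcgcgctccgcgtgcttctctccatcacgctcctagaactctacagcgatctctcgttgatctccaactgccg
The Mt1 window held 6 matches and the Mt2A window 4, and 24.2% of all 33469 windows held at least 1.

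Nuclear genes of the respiratory chain had 61 of 66 fold changes above 0, a median of 0.59 and 10 rises (15.2%, against 6.05% of all genes). The number of rises was 3 without 3d replicate 1, 4 without 7d replicate 13 and 21 with libraries scaled to the same total. Of 89 ribosomal protein genes 3 rose (3.37%) and 2 fell (2.25%), both below the shares of all genes, with a median of 0.17 and 1 rise without 3d replicate 3 or 7d replicate 13 and 5 without 3d replicate 2. Among 13 mitochondrial mRNAs 3 fell, among them Mt-nd6 (5432, 3277, 3822 and 3526 at 3d, 74.3, 159, 73.4 and 191 at 7d, log2 fold change -5.10, SE 0.72, adjusted p = 6.93e-05), and the median was -0.06. Mt-nd6 is encoded on the opposite strand from most genes of the mitochondrial genome. Of the hypoxia and glycolysis list 6 genes rose (20.7%) and 5 fell of 29, with 3 falls without 3d replicate 1, 2 or 3 or 7d replicate 7.2 or 11. The share of falls, 17.2%, was near the 17.0% of all genes. Pfkfb3, an activator of glycolysis (2.56, SE 0.47, adjusted p = 0.000462), the glucose transporter Slc2a1 (1.42, SE 0.35, adjusted p = 0.0039) and Pgam1 (1.45, SE 0.21, adjusted p = 7.8e-05) rose.

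Each of the chromatin lists held a larger share of falls than all tested genes. Of 32 chromatin remodelling genes 15 fell (46.9%, against 17.0%), of 51 histone methylation genes 22 fell and 1 rose, of 32 histone acetylation genes 11 fell and 1 rose, and of 15 DNA methylation genes 7 fell, with medians of -0.96, -0.95, -0.51 and -1.33 (-0.85 with undetected genes at their bound). Kmt2c, a methyltransferase that acts at enhancers, stood at 3699, 1756, 2502 and 2474 at 3d and at 155, 248, 33.4 and 91.3 at 7d (log2 fold change -4.58, SE 0.61, adjusted p = 6.44e-05). Its relative Kmt2a fell by 4.16 (SE 0.58, adjusted p = 6.84e-05) and Setd1b, of the same enzyme class, from 193 reads to 2, a ratio of 229 (95% counting interval 62.7 to 1908). The remodelling ATPase Srcap fell by 6.37 (SE 1.10, adjusted p = 0.00028) and Bptf, the reader subunit of a remodeller, from 8698, 4174, 4644 and 5029 to 1716, 2278, 1089 and 1457 (-1.77, SE 0.31, adjusted p = 0.000276). Tet3, which oxidises methylated cytosine, fell by 4.45 (SE 0.72, adjusted p = 0.000163). For all of these genes every 7d library was below every 3d library. The chromatin lists also held falls in the other rats. In saline rats 10 chromatin remodelling, 6 histone methylation, 2 histone acetylation and 1 DNA methylation genes fell, against 2.52% of all genes. The medians there were -0.85, -0.61, -0.14 and -0.37. In MABs-allo-VEGF rats 16, 23, 8 and 6 genes fell, in the same order, against 12.9% of all genes. Whether the lists as a whole differed between the treatments was not tested.

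Of 19 transcription elongation genes 7 fell (36.8%, against 17.0% of all genes) and 2 rose, with Cdk13, a kinase of RNA polymerase II, down by 3.27 (SE 0.66, adjusted p = 0.000858). Of 32 splicing genes 9 fell (28.1%) and 1 rose, with Hnrnpa2b1 down by 2.87 (SE 0.60, adjusted p = 0.00118), and 7 of 23 histone genes fell (30.4%). Of 223 small noncoding RNA genes 64 fell (28.7%) and 4 rose, with a median of -1.35, or -1.12 with undetected genes at their bound, and their summed level was 6662 to 33216 at 3d and 2239 to 4003 at 7d. The library kit primes on poly(A), and the part of these RNAs and of the mitochondrial rows in the falls was not tested.

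**Figure D5:**
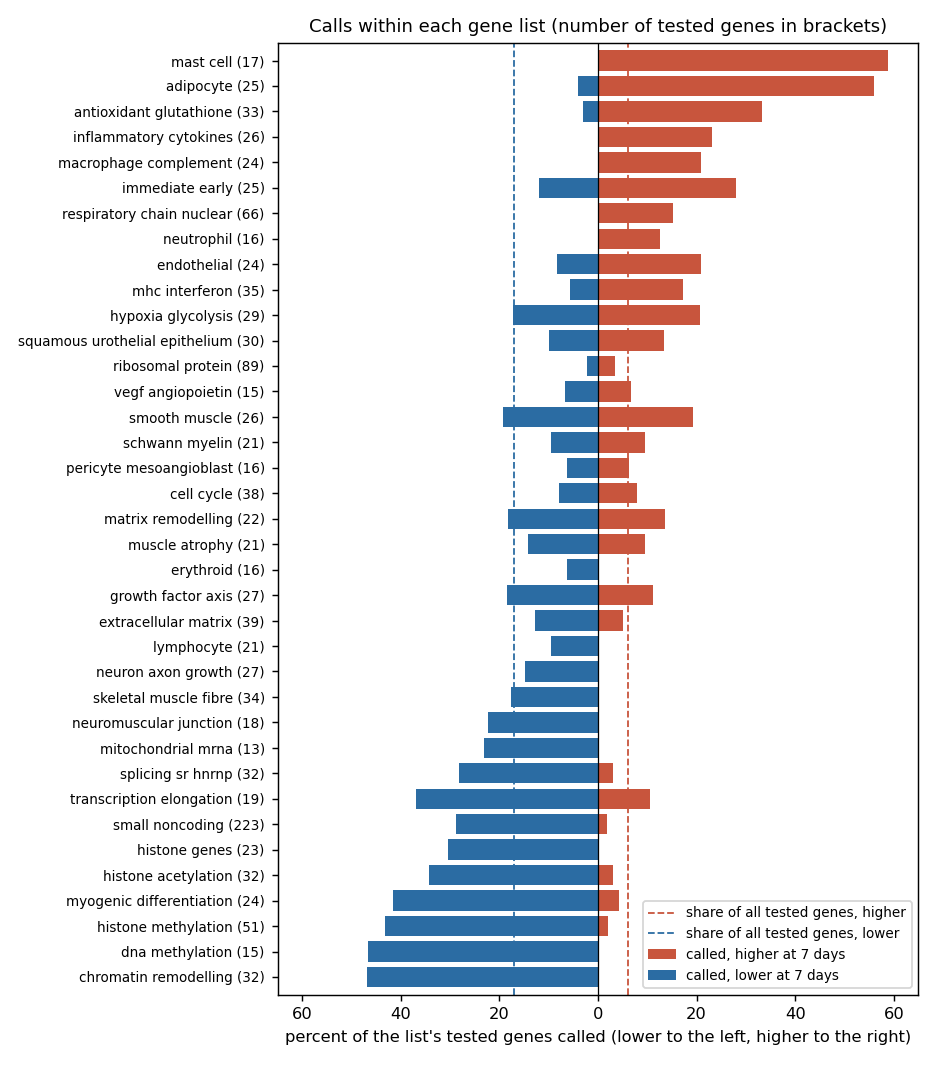
Percent of the tested genes of each list that were called lower (blue, to the left) or higher (red, to the right) at 7d in MABs-allo urethra. Dashed lines give the shares over all tested genes, 17.0% lower and 6.05% higher. Mast cell (58.8%) and adipocyte (56.0%) genes have the largest shares of rises and chromatin remodelling genes (46.9%) the largest share of falls among the lists shown.

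Matrix, epithelial and proliferation genes showed smaller or mixed changes. Of 39 extracellular matrix genes 2 rose (5.13%) and 5 fell (12.8%), both below the 6.05% and 17.0% of all genes. Their median was 0.37, but the number of rises went from none to 9 as single libraries were left out (none without 3d replicate 1, 1 without 3d replicate 3 or 7d replicate 13, 5 without 7d replicate 9 and 9, with 3 falls, without 3d replicate 2). Col1a1 stood at 23232, 152909, 61132 and 106727 at 3d and at 129029, 136280.1, 133903 and 337067 at 7d (log2 fold change 1.27, adjusted p = 0.16), with 3d replicate 1 the lowest. Thbs1, a matrix protein of injured tissue, fell by 5.86 (SE 1.34, adjusted p = 0.00219) and Col4a2 of the basement membrane fell by 3.76 (SE 0.75, adjusted p = 0.00082). The remodelling list gave 3 rises (13.6%) and 4 falls (18.2%) of 22, with no rise left without 3d replicate 3 and 2 falls without 7d replicate 13. Of 30 epithelial genes 4 rose and 3 fell, with 2 rises without 7d replicate 11 and 1 fall without 3d replicate 1, 3d replicate 3 or 7d replicate 13. Among the rises was Krt7 of simple epithelium (2386, 1751, 2483 and 1193 at 3d, 17371, 10695, 25367 and 7462 at 7d, 2.87, SE 0.77, adjusted p = 0.00674). Upk2, a plaque protein of the urothelium, stood at 35.5 to 148 at 3d and at 3299, 79.5, 7049.6 and 614 at 7d, and its rise (3.99, SE 1.14, adjusted p = 0.0102) was lost without 7d replicate 11 (3.07, adjusted p = 0.0514).

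Among 38 cell cycle genes 3 rose and 3 fell (7.89% each, against 6.05% and 17.0% of all genes). However, 1 rose and 6 fell without 7d replicate 11, 5 rose without 7d replicate 9, and 1 fell without 3d replicate 1, 2 or 3 or 7d replicate 9 or 13. Mki67, a marker of dividing cells, fell from 227, 498, 600.1 and 353 to 46.5, 16.6, 182 and 16.6 (log2 fold change -3.28, SE 0.85, adjusted p = 0.00534), while the replication clamp Pcna rose from 533, 1018, 517 and 477 to 1208, 1139, 2978 and 1390.3 (1.35, SE 0.34, adjusted p = 0.0043). The growth factor list gave 3 rises (11.1%) and 5 falls (18.5%) of 27. Igfbp5, which binds insulin-like growth factors, fell from 31148, 33334, 27566 and 37903 to 7291, 9202, 8739 and 6561 (-2.03, SE 0.29, adjusted p = 6.97e-05), and Inhba, a subunit of activin, by 5.16 (SE 1.0, adjusted p = 0.000651). Igfbp7 rose by 1.66 (SE 0.38, adjusted p = 0.00239). Of 25 immediate early genes 7 rose (28%, against 6.05% of all genes) and 3 fell (12%, against 17.0%). Junb was among the rises (1.34, SE 0.25, adjusted p = 0.000423). Of the erythroid list 1 of 16 genes fell (6.25%).

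From the genes that the study named from its mRNAseq 30 were taken, and since the study chose them on these libraries their directions are not independent evidence. From 3d to 7d in MABs-allo urethra 14 of the 30 fell and 6 rose, with a median of -1.44, whereas 17.0% of all tested genes fell and 6.05% rose. The falls not named above were those of Dnmt3a (-2.34), Tet2 (-1.93), Hdac1 (-1.13), Kat6a (-2.93), Ehmt1 (-2.96), Kdm6a (-1.96), Arhgap31 (109 reads against 3, ratio 86.4, 95% counting interval 28.8 to 425), Srgap1 (-3.03), Sox2 (-1.77), Itga4 (-7.03) and Igf2 (-2.63). The call of Hdac1 was lost without 7d replicate 13 (-0.997, adjusted p = 0.0539), and that of Ehmt1 without 3d replicate 1 (-2.61, adjusted p = 0.0758), 3d replicate 3 or 7d replicate 11. Rises not named above were those of Cyp11a1 (no read at 3d, at least 1.92-fold higher), Lep (1 read at 3d, 411 at 7d, ratio 173, interval 30.9 to 6844), Fer1l4 (4.56) and Ccnb1ip1, whose 7d values of 15.5, 6.62, 8.34 and 4.15 rest on 1 to 5 reads. The call of Fer1l4 was lost without 3d replicate 2 (3.61, adjusted p = 0.0578) or 7d replicate 11. Those that did not pass were Myh3 (above), Nrg1 (-0.35, adjusted p = 0.719), Hbb (2.69, adjusted p = 0.161), Hba-a2 (above), Il1b (1.51, adjusted p = 0.0583), Dio3 (1.60, adjusted p = 0.0702), Efnb3 (2 reads at 3d and 20 at 7d, adjusted p = 0.209), Rhov (-0.62, adjusted p = 0.522), Dennd1b (-2.51, adjusted p = 0.058) and S100a5 (1.33, adjusted p = 0.226).

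Whether the day change differed from that of saline rats was tested over all genes as an interaction. No gene passed in limma (smallest adjusted p = 0.182, 2239 genes at an unadjusted p under 0.05), none in edgeR's quasi-likelihood test on recovered reads and 75 in DESeq2. Without the 2 libraries that stood apart the count was 589 (3.59% of those tested), 89 higher and 500 lower. Leaving out saline 3d replicate 6 alone gave 119, and leaving out saline 3d replicate 8 alone gave 0. Among the 589 genes were Sod3 (difference 2.11, SE 0.42, adjusted p = 0.0086), Igfbp7 (2.16, SE 0.47, adjusted p = 0.0149), RT1-Ba (2.81, SE 0.69, adjusted p = 0.0282), RT1-Da (2.58, SE 0.64, adjusted p = 0.0297), Chrm3 (3.13, SE 0.77, adjusted p = 0.0271), Lipe (2.20, SE 0.54, adjusted p = 0.0267), Scd (-3.35, SE 0.89, adjusted p = 0.0393), Gsr (-3.01, SE 0.71, adjusted p = 0.0226), Setd1b (-6.92, SE 1.26, adjusted p = 0.00629) and Arhgef17 (-7.40, SE 1.27, adjusted p = 0.00414). Saline rats themselves had 508 calls between the days (3.10%), 95 higher (0.579%) and 413 lower (2.52%), with 417 of them shared in direction with MABs-allo, which is 82.1% of the saline calls and 11% of the MABs-allo calls. Whether called in saline rats or not, 3339 of the MABs-allo calls (88.1%) had a fold change of the same sign there. Against MABs-allo-VEGF rats the interaction was called for 1 gene (0.00609%), Ccnb1ip1, and 2 of the 4 MABs-allo-VEGF 7d libraries carry the label recovery. MABs-allo-VEGF rats had 2470 calls (15.1%), 356 higher (2.17%) and 2114 lower (12.9%), of which 1920 were shared in direction, 77.7% of theirs and 50.7% of those of MABs-allo. The sign was the same in MABs-allo-VEGF rats for 3619 of the MABs-allo calls (95.5%).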

How the data were processed

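RNA of rat urethra was sequenced from the 3′ end (QuantSeq) in 24 libraries. The authors aligned reads to Rnor6.0 with HISAT2, counted them per gene with HTSeq and deposited DESeq2-normalized counts, a signal that is scaled per library and is not a raw count. Every value above 0 (357466, 100%) was a whole multiple of 1 read (tolerance 1e-06), so reads were recovered.

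limma 3.58.1 in R 4.3.3 was fitted on log2(normalized count + 1) over all 24 libraries in 6 groups, for 16411 genes with a mean of at least 2 over the 8 MABs-allo libraries. Calls needed a Benjamini-Hochberg adjusted p under 0.05 and a log2 fold change beyond 1. All p-values printed as adjusted are from this fit unless another is named, and fold changes on this scale understate changes of low genes. On recovered reads, edgeR 4.0.16 (quasi-likelihood) called 3858 genes and DESeq2 1.42.0 called 3729. The scripts were tested on simulated data. Other alternatives were another pseudocount, other filters, quantile, same-total and TMM scaling, thinned reads, sample weights, fewer libraries and each library left out. Floors are 3 reads per library. Undetected genes whose mean on the other day lay under the floor have no bound and kept their log2 fold change in the medians at bounds. Outlying values were sought on the log2 scale. Named genes were the 10 largest falls and 10 largest rises, and genes of 39 lists. The largest falls and rises were taken among called genes with a mean of at least 50, groups without overlap and a symbol that is not repeated. The members and lists were chosen with earlier results of these data known. A few listed genes were not analysed here, 1 list and 1 gene are not reported here, and 2867 genes carry a repeated symbol.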

Additional observations from a re-analysis of the deposited data

Results flagged for a closer look

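For the genes examined singly (most of them named in the text), 305 groups of 4 MABs-allo libraries were checked. In 24 groups 1 library stood far from the other 3 on the log2 scale (Dixon's 95% critical value). A rate of 1 in 20, or 15.25 groups, would hold for independent, normally distributed values. Here a group with reads in only 1 library is always flagged, and the genes share libraries. The 24 groups can therefore not be judged against 15.25. Of the 24 groups, 8 came from 7d replicate 13. That library was high for Adm (3947 normalized counts), Col1a1 (337067), Hba-a2 (529783), Mbp (1992), Mt1 (41617) and Mt2A (46796). It held the only reads of Arhgap23 (4.15) and Dlg5 (4.15) at 7d. Replicate 9 at 7d was low for Alpl (159) and held the only reads of Pax3 (6.62) and Pax7 (3.31). Replicate 11 at 7d was low for Kdm6a (127) and Tet3 (5.0), and replicate 7.2 had no read of Sox11 (0). At 3d, replicate 1 was low for Cd68 (56.8) and Ldha (489.9), and replicate 2 was high for Igf2 (509), Mcm4 (454) and Pcna (1018) and held the only read of Lep (5.47). Replicate 3 was high for Cd74 (4514) and low for Prox1 (111), and replicate 4 was low for Arhgap23 (163) and held the only read of Csf3 (5.42). The change of Ccnb1ip1 from 3d to 7d differed between MABs-allo and MABs-allo-VEGF by 6.23 on the log2 scale (SE 0.96, adjusted p = 0.0181, limma). It rests on few reads and was not called without the 2 libraries that stood apart (adjusted p = 0.0509).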

How the results depend on the processing

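The number of genes called from 3d to 7d (3790) ranged from 3169 to 4083 as each library was left out, with rises from 727 to 1146 and falls from 2396 to 2937. Rises numbered 1889 with quantile normalization, 1635 with libraries scaled to the same total and 651 with DESeq2 and ashr, against 993. Of 159 genes examined singly, 133 were called, all 133 kept their direction in every alternative and 105 kept the call in each. The sign turned for genes that were not called: Acta1 was 0.10 with the same total and 0.00917 with TMM and ranged from -0.57 to 0.20 with a library left out (0.05 and 0.19 without 3d replicate 3 and 7d replicate 7.2), Ckm was 0.011 with the same total and ranged from -0.73 to 0.13 (0.069, 0.11 and 0.014 without 3d replicate 4, 7d replicate 7.2 and 7d replicate 11), Myh4 ranged from -0.55 to 0.16 (0.056 without 7d replicate 7.2), Alpl from -0.045 without 3d replicate 4 to 0.77, and Nrg1 was 0.33 with quantile normalization and ranged from -0.94 to 0.14. The cause was not tested. With a library left out, the median also changed sign for the lymphocyte (-0.35 to 0.73), smooth muscle (-0.24 to 0.16), extracellular matrix (-0.04 to 0.77), cell cycle (-0.15 to 0.68), atrophy (-0.20 to 0.23) and mitochondrial mRNA (-0.21 to 0.25) lists, among others.

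The difference of the day change from saline had 0 calls in limma (2239 genes at an unadjusted p under 0.05) and 0 in edgeR. It had 75 in DESeq2 (28 higher, 47 lower), 284 with sample weights (66 and 218) and 589 without both MABs-allo-VEGF 3d replicate 4 and saline 3d replicate 6 (89 and 500). With single libraries left out it ranged from 0 to 119 (0 to 12 higher, 0 to 107 lower), with 119 without saline 3d replicate 6 and 5, all lower, without MABs-allo 3d replicate 4. The difference from MABs-allo-VEGF had 1 call, which was higher. It had 0 with a pseudocount of 5, a filter at a mean of 10, quantile normalization, thinned reads, without both doubted libraries, in edgeR and in DESeq2 (861 genes at an unadjusted p under 0.05 in each of these tools), and 0 to 4 with single libraries left out (0 to 2 higher, 0 to 2 lower). No paired analysis was possible because the urethra was taken at either 3d or 7d, so the days come from different rats. Depth limits genes with few reads, above all at 3d, where 1 read was worth 5.42 to 9.23 normalized counts.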

Other observations

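The 5 genes given here were singled out after their values were seen, from no fixed list, and other genes of their pathways were not counted. Tsc22d3 (GILZ), a glucocorticoid target, stood at 802, 1083, 1052 and 1503 normalized counts at 3d and at 4039, 6762, 2224 and 6142 at 7d (log2 fold change 2.02, SE 0.39, adjusted p = 0.000614). Fkbp5, which tempers the glucocorticoid receptor, rose by 2.13 (SE 0.63, adjusted p = 0.0129), a call lost without 7d replicate 7.2 (1.69, adjusted p = 0.0585), and the kinase Sgk1 by 1.5 (SE 0.36, adjusted p = 0.00285). Among genes of the daily clock, Ciart rose by 5.19 (SE 0.93, adjusted p = 0.000354) and Nr1d2 by 1.26 (SE 0.27, adjusted p = 0.00146), the latter without overlap.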
